A study of Homo sapiens with 6 samples.

Results

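A group of 10 genes that mark mesendoderm and endoderm (EOMES, TBXT, MIXL1, GSC, SOX17, FOXA1, FOXA2, GATA4, GATA6 and CXCR4) was measured by bulk RNA sequencing in undifferentiated human embryonic stem cells (hESCs). Its members were taken by gene symbol from a table of 61155 symbols, which held all 10. The comparison asked whether loss of S6K1, a kinase downstream of mTOR encoded by RPS6KB1, changed these genes before any differentiation was started. The WT group was the H7 line, an established hESC line, in 3 libraries. The knockout group was H7 in which CRISPR/Cas9 had targeted exons 9 and 11 of RPS6KB1, also in 3 libraries. Per the paper all knockout libraries came from clone #1, so genotype and clone cannot be told apart. The labels name the second group as a knockdown, and it is called S6K1-/- here. They also give a time of week 5 beside an undifferentiated state for both groups. Both groups grew without feeders on Matrigel in TeSR-E8.

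Mesendoderm is the transient state of the primitive streak from which mesoderm and endoderm arise, and Nodal signalling through SMAD2, SMAD3 and FOXH1, together with WNT and BMP, turns it on. EOMES and TBXT are T-box factors, MIXL1 and GSC are homeobox factors, and all of them are among the first genes to respond. SOX17, the pioneer factors FOXA1 and FOXA2, the zinc finger factors GATA4 and GATA6 and the chemokine receptor CXCR4 mark the endoderm that follows. Undifferentiated hESCs are held in a pluripotent state, in which most of these genes are known to be low.

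Library totals ranged from 21896698 to 24473013 counts. RPS6KB1 had 831, 791 and 777 counts in WT and 464, 464 and 438 in S6K1-/- hESCs, so the targeted gene was lower in each S6K1-/- library but still had reads (log2 fold change -0.75, SE 0.0570, edgeR adjusted p = 2.52e-07). The pluripotency genes POU5F1, NANOG and SOX2 were high in both groups, with 181 ± 3.71, 191 ± 5.96 and 300.2 ± 9.70 CPM, counts scaled to the size of the library by TMM (trimmed mean of M-values), in WT (SD, n = 3), and their edgeR adjusted p was 0.733, 0.428 and 0.564. Here and throughout, an edgeR adjusted p is that of its quasi-likelihood test after Benjamini-Hochberg adjustment over all genes tested, SD is the spread of the libraries and SE the standard error of the log2 fold change. Whether the libraries of a group came from separate cultures is not stated, so p-values measure only the spread between these libraries, which may be technical. In bulk RNA, fewer cells that express a marker and less RNA per cell cannot be told apart.

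RefSeq promoters (GRCh38.p14) were matched for 7 of the 10 genes, with 10 start sites between them, and not for SOX17, FOXA2 and GATA4. The stretches before the start sites of MIXL1 and FOXA1 are shown because these genes were the most abundant and their estimates had opposite signs. Bases that GENCODE annotation places in an exon were left off. The MIXL1 stretch ends just before the first exon, and the FOXA1 stretch, which precedes the RefSeq start, is intronic in the longer GENCODE gene. Capitals mark a match to a motif searched on both strands.
MIXL1, chr1:226223414-226223617, plus strand: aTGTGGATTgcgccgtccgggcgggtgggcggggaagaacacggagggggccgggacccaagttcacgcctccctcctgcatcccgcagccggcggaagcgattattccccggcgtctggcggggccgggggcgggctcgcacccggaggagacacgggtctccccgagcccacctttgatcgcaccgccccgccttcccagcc
FOXA1, chr14:37595349-37595499, minus strand: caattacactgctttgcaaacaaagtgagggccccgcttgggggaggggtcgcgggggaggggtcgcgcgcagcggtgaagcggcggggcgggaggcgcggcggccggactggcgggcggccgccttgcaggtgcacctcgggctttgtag
The capitals in MIXL1 are a match to AATCCACA, a sequence bound by FOXH1, on the reverse strand, and 249 bases before the RefSeq start site. Of 35116 promoters, 0.709% held these letters in the 250 bases before the start. Of the other motifs searched, the TATA box (TATAAA) was found in 10.7% of promoters. The CCAAT box was found in 32.0%, and a forkhead sequence (TGTTTAC) in 2.98%. A GATA sequence (AGATAA) was found in 9.17%, a T-box sequence (TCACACCT) in 0.786%, and the E-box (CACGTG) in 6.34%. None of the motifs matched in the 250 bases before the FOXA1 start. The TATA box letters lay 29 to 32 bases before a start site of EOMES, TBXT and CXCR4, on either strand. They also lay 155 bases before the GSC start, and CCAAT box letters were found before a start site of TBXT, GATA6 and CXCR4. A match describes letters only.

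The position of each gene was read from GENCODE on GRCh38, the build the authors aligned to. MIXL1 lies on chromosome 1 from 226223618 to 226227060 on the plus strand, CXCR4 on chromosome 2 from 136114349 to 136119177 on the minus strand, and EOMES on chromosome 3 from 27715949 to 27722711 on the minus strand. TBXT lies on chromosome 6 from 166157656 to 166168700 on the minus strand. FOXA1 and GSC are both on the minus strand of chromosome 14, from 37589552 to 37596059 and from 94768223 to 94770113. FOXA2 lies on the minus strand of chromosome 20 from 22580998 to 22585455. GATA4 and SOX17 are on the plus strand of chromosome 8, from 11676959 to 11760002 and from 54457935 to 54460892, and GATA6 on the plus strand of chromosome 18 from 22169589 to 22202528. FOXA1 overlaps TTC6, GATA6 overlaps GATA6-AS1, and TBXT overlaps LNCDAT, each on the opposite strand. The strand setting of the counting is not given in the sources used here, so how reads from such overlaps were assigned is not known.

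**Figure D1:**
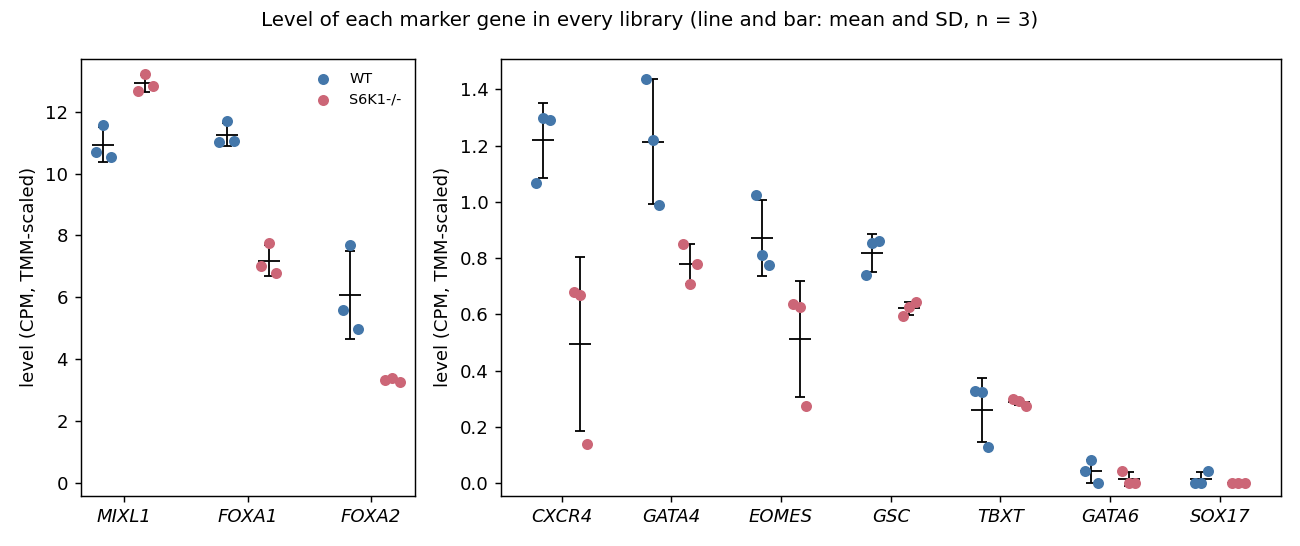
Level of each of the 10 marker genes in every library, in CPM after TMM scaling (y axis), for WT (blue) and S6K1-/- (red) hESCs, with the mean and SD of 3 libraries. The left panel holds the 3 most abundant genes and the right panel the other 7 on its own scale. S6K1-/- libraries sat below all WT libraries for FOXA1, FOXA2, CXCR4, GATA4, EOMES and GSC and above them for MIXL1.

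MIXL1 was the highest of the markers per kilobase of exon but not in CPM, where FOXA1 was at 11.3 ± 0.380 and MIXL1 at 10.9 ± 0.560 in WT with overlapping libraries (SD, n = 3). Per kilobase of exon, WT hESCs held 5.38 ± 0.275 CPM of MIXL1, 2.55 ± 0.0860 of FOXA1, 2.24 ± 0.520 of FOXA2 and 0.717 ± 0.0599 of GSC (SD, n = 3). CXCR4 followed with 0.420 ± 0.0455, GATA4 with 0.273 ± 0.0503, EOMES with 0.238 ± 0.0371 and TBXT with 0.100 ± 0.0438 CPM per kilobase. GATA6 and SOX17 were last, with 0.0107 ± 0.0107 and 0.00611 ± 0.0106. The WT libraries of FOXA1 and FOXA2 overlapped, as did those of GATA4 and EOMES and those of GATA6 and SOX17, so their order is not resolved, whereas the other neighbours did not overlap. On the same scale POU5F1 stood at 63.1 ± 1.29 CPM per kilobase (SD, n = 3). In S6K1-/- hESCs the order differed in that CXCR4, at 0.171 ± 0.107 CPM per kilobase, came after GATA4, at 0.176 ± 0.0159, which are not separable.

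FOXA1 fell in S6K1-/- hESCs and was the only one of these genes past the study's threshold, an adjusted p under 0.001, in edgeR's quasi-likelihood test. The study used that threshold with DESeq2, whose Wald test here also placed FOXA2 past it (adjusted p = 1.56e-04). For the other 6 genes tested the estimate was negative for FOXA2, CXCR4, GATA4, EOMES and GSC and positive for MIXL1. Of the 10 genes, 7 passed the filter on low counts and were tested, and TBXT, GATA6 and SOX17 did not. The share of all 19521 genes tested that were lower at this threshold was 2.54%, and 1.42% were higher. At an adjusted p under 0.05, 3 of the genes tested (FOXA1, FOXA2 and CXCR4) were lower, against 8.31% of all genes, and MIXL1 was higher, against 5.47%. Without regard to a test, 6 genes had every S6K1-/- library below every WT library, against 16.7% of all genes tested, and MIXL1 had every one above, against 14.0%. At an unadjusted p under 0.05 in edgeR's test, EOMES and GATA4 joined the lower genes, against 14.5% of all genes tested, and MIXL1 stayed the 1 higher gene, against 11.8%. A log2 fold change below 0 was found for 6 of the 7 genes and for 50.6% of all genes tested. EOMES and CXCR4 reached the filter's minimum in 3 WT libraries and in only 2 S6K1-/- libraries. For LINC00261 and ACKR3, genes linked to FOXA2 by position and to CXCR4 by ligand, these were 3 WT libraries and 1 S6K1-/- library. With 7 of 10 genes passing, these numbers describe the genes tested and not the whole list.

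**Figure D2:**
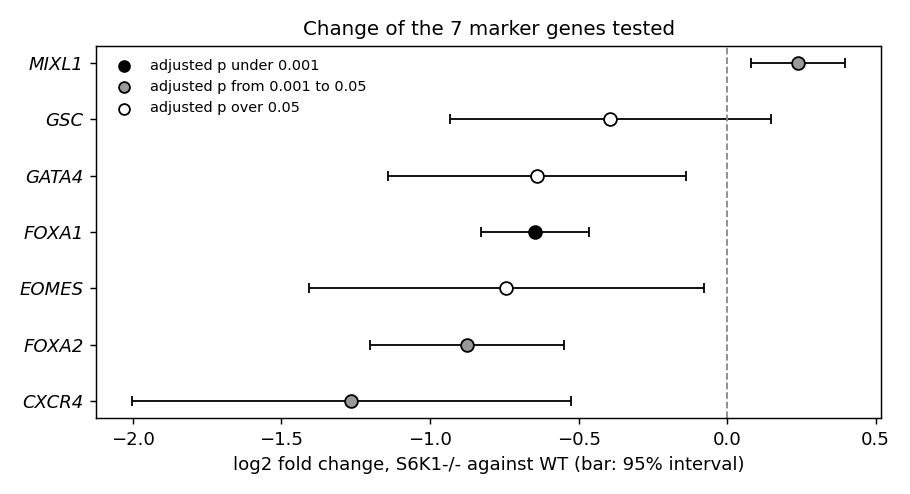
Log2 fold change of the 7 marker genes tested, S6K1-/- against WT (x axis), with 95% intervals from edgeR's quasi-likelihood fit. FOXA1, at -0.65, is the filled point past an adjusted p of 0.001, and of the intervals only that of GSC crosses 0.

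Among the streak factors, MIXL1 had 261, 285 and 245 counts in WT and 298, 317 and 280 in S6K1-/- hESCs. All S6K1-/- libraries were higher than all WT libraries after scaling, at 12.9 ± 0.281 against 10.9 ± 0.560 CPM (SD, n = 3 each). The log2 fold change of MIXL1 was 0.24 (SE 0.0743, 95% interval 0.08 to 0.40), with an edgeR adjusted p of 0.0449. It did not pass 0.001, and it was above 0.05 with DESeq2's Wald test (adjusted p = 0.166), in edgeR without the filter on low counts (0.0704) and with the replicate block (0.0551), and when any of 5 of the 6 libraries was left out.

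GSC, a homeobox factor of the organizer, had 18, 21 and 20 counts in WT and 14, 15 and 14 in S6K1-/- hESCs. The groups did not overlap, but the counts were few, and the log2 fold change of -0.39 (SE 0.253) had a 95% interval from -0.93 to 0.15 and an edgeR adjusted p of 0.396. A change of this size was not detectable at this depth.

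EOMES, which drives definitive endoderm in hESCs and later marks intermediate progenitors of the cortex, had 25, 20 and 18 counts in WT. In S6K1-/- hESCs it had 15, 15 and 6 counts, with replicate 3 well under the others. The log2 fold change was -0.74 (SE 0.311, 95% interval -1.41 to -0.08), and the edgeR adjusted p of 0.138 did not pass. Without S6K1-/- replicate 3 the log2 fold change was -0.45 (edgeR adjusted p = 0.379).

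TBXT, or Brachyury, had 8, 8 and 3 counts in WT and 7, 7 and 6 in S6K1-/- hESCs, and the groups overlapped. Summed over libraries this was 19 against 20 counts, a ratio of 1.10 with an exact 95% interval from 0.556 to 2.17, which covers counting error only. A change within these bounds was not detectable at this depth.

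Among the endoderm factors, FOXA1 had 269, 288 and 257 counts in WT and 165, 186 and 148 in S6K1-/- hESCs. Every S6K1-/- library lay below every WT library, and the mean went from 11.3 ± 0.380 to 7.19 ± 0.506 CPM (SD, n = 3 each), which is 63.8% of WT. FOXA1 fell by 0.65 on the log2 scale (SE 0.0855, edgeR adjusted p = 8.82e-05). Without S6K1-/- replicate 3 it was just outside the threshold, with an edgeR adjusted p of 0.00114. TTC6, on the opposite strand, had 49, 37 and 36 counts in WT and 30, 25 and 21 in S6K1-/- hESCs, and its log2 fold change was -0.62 (SE 0.209, edgeR adjusted p = 0.0643). TTC6 was added for its overlap, and its part in the counts of FOXA1 was not tested.

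FOXA2, its paralog and a pioneer factor of endoderm and floor plate, had 136, 189 and 116 counts in WT and 78, 81 and 71 in S6K1-/- hESCs. The S6K1-/- libraries were tight and lay below all WT libraries, which varied more, at 3.32 ± 0.0607 against 6.08 ± 1.41 CPM (SD, n = 3 each). The log2 fold change was -0.88 (SE 0.153, 95% interval -1.20 to -0.55), larger in size than that of FOXA1 but with an edgeR adjusted p of 0.00108, just outside the threshold. DESeq2's Wald test placed FOXA2 inside it, with an adjusted p of 1.56e-04. Without WT replicate 2, the highest WT library, the log2 fold change was -0.67 (edgeR adjusted p = 0.00336), and without WT replicate 3, the lowest, it was -0.99 and past the threshold (edgeR adjusted p = 6.59e-04).
LINC00261, a long noncoding RNA that lies beside FOXA2 on the same strand of chromosome 20, from 22547663 to 22578642, had 22, 36 and 19 counts in WT and 16, 9 and 8 in S6K1-/- hESCs. WT replicate 2 was the highest library for this RNA too. Its log2 fold change was -1.15 (SE 0.327, edgeR adjusted p = 0.0283), which did not pass 0.001. FOXA3, the other member of the FOXA group, had 385, 459 and 407 counts in WT and 359, 388 and 331 in S6K1-/- hESCs. The groups overlapped for FOXA3, with a log2 fold change of -0.15 (SE 0.0739, edgeR adjusted p = 0.200).

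GATA4, a factor of endoderm and heart, had 35, 30 and 23 counts in WT and 20, 17 and 17 in S6K1-/- hESCs. The groups did not overlap, the log2 fold change was -0.64 (SE 0.235, 95% interval -1.14 to -0.14), and the edgeR adjusted p of 0.0894 did not pass. GATA6, which precedes GATA4 in endoderm, had 1, 2 and 0 counts in WT and 1, 0 and 0 in S6K1-/- hESCs, and its opposite-strand partner GATA6-AS1 had at most 1 count in any library. Both groups were at or under 3 counts for GATA6, so no fold is given.
SOX17, a defining factor of definitive endoderm, had 1 count in WT replicate 3 and none in the other 5 libraries. A count of 0 allows up to 3 counts, or 0.122 to 0.138 CPM depending on the library. At this depth neither SOX17 nor GATA6 was measurable in either group, and a difference in them was not detectable.

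Relatives of these factors were listed for comparison. Of 11 genes of the T-box, goosecoid, SOX, FOXA and GATA families, 8 were tested. At an adjusted p under 0.001, 1 was higher and none was lower, against 1.42% and 2.54% of all genes tested. The higher gene was GATA2, a factor of trophoblast, amnion and blood, with 84, 76 and 75 counts in WT and 140, 141 and 131 in S6K1-/- hESCs. GATA2 rose by 0.87 on the log2 scale (SE 0.111, edgeR adjusted p = 6.39e-05), whereas GATA3 had a log2 fold change of -0.18 (SE 0.273, adjusted p = 0.748) and GATA5 of -0.32 (SE 0.172, adjusted p = 0.255).

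CXCR4, the receptor by which definitive endoderm is often sorted, had 26, 32 and 30 counts in WT and 16, 16 and 3 in S6K1-/- hESCs. The groups did not overlap, and S6K1-/- replicate 3 stood apart at 20.4% of the mean of replicates 1 and 2. For EOMES that share was 43.6%, while for TBXT, MIXL1, GSC, FOXA1, FOXA2 and GATA4 it was between 91.9% and 105%. The log2 fold change of CXCR4 was -1.26 (SE 0.346, 95% interval -2.00 to -0.53), with an edgeR adjusted p of 0.0235. Without S6K1-/- replicate 3 it was -0.84 with an edgeR adjusted p of 0.0602, and without WT replicate 2 or WT replicate 3 the adjusted p was also above 0.05, at 0.0568 and 0.0756.
CXCL12, the ligand of CXCR4, had 1405, 1575 and 1366 counts in WT and 1528, 1413 and 1299 in S6K1-/- hESCs, and the groups overlapped (log2 fold change 0.03, SE 0.0526, edgeR adjusted p = 0.816). ACKR3, which also binds CXCL12, had 21, 22 and 21 counts in WT and 7, 16 and 8 in S6K1-/- hESCs. Its log2 fold change was -0.98 (SE 0.309, edgeR adjusted p = 0.0484), which did not pass 0.001.

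**Figure D3:**
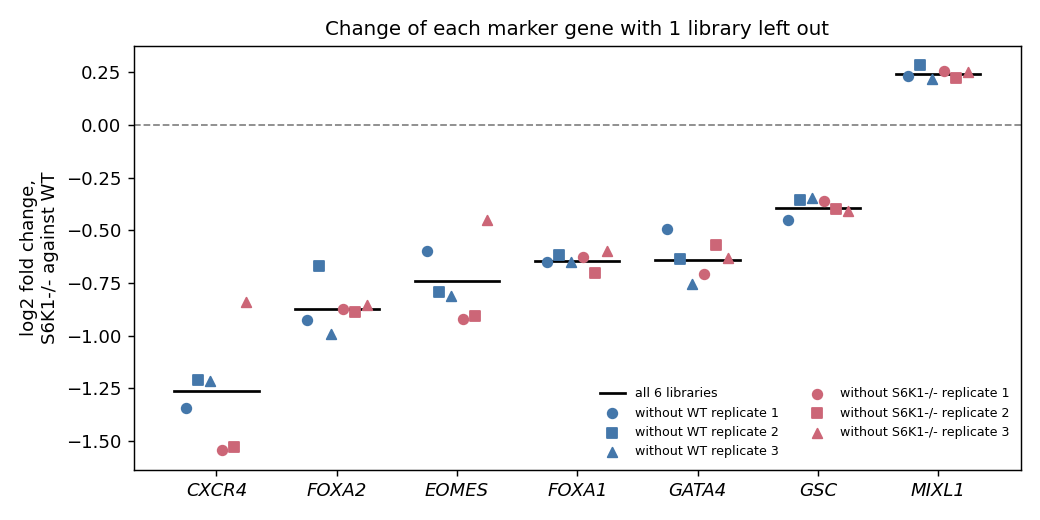
Log2 fold change of each tested marker gene, S6K1-/- against WT (y axis), with all 6 libraries (line) and with 1 library left out (points, blue for a WT library and red for an S6K1-/- library). No point crossed 0, and CXCR4 and EOMES moved most, to -0.84 and -0.45 without S6K1-/- replicate 3.

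Genes that act with these markers were then read from lists. Over all genes tested, 2.54% were lower and 1.42% higher at an adjusted p under 0.001. At an unadjusted p under 0.05 in edgeR's test, 14.5% were lower and 11.8% higher. Of 16 other endoderm genes, 11 were tested, 3 were lower and none was higher at an adjusted p under 0.001, with a median log2 fold change of -0.53 beside 0.00 over all genes tested. CER1, and AFP, which did not pass 0.001, reached the filter's minimum in 3 WT libraries and only 1 S6K1-/- library, so count and median describe the 11 genes tested and not the list of 16. The lower genes were SHISA2, CER1 and APELA. SHISA2, an inhibitor of WNT and FGF receptor maturation, had 815, 858 and 791 counts in WT and 369, 414 and 360 in S6K1-/- hESCs and fell by 1.05 on the log2 scale (SE 0.0602, edgeR adjusted p = 1.05e-08). APELA, a peptide ligand of the apelin receptor that is also abundant in undifferentiated hESCs, had 905, 1073 and 915 counts in WT and 622, 691 and 608 in S6K1-/- hESCs and fell by 0.53 (SE 0.0646, edgeR adjusted p = 4.04e-05). FRZB, a secreted WNT antagonist, had a log2 fold change of -0.86 with an edgeR adjusted p of 0.0113, and KIT, a receptor tyrosine kinase, one of 0.18 with an adjusted p of 0.0144, and these were the other genes of the list under 0.05. TTR was at 0 in every library.
Of 15 genes of the Nodal axis, 3 were lower and 1 was higher, and the median log2 fold change was 0.02. LEFTY2 and CER1, antagonists of Nodal, and INHBA, a subunit of activin A, were lower, and the ligand GDF3 was higher. CER1 was counted among the other endoderm genes as well. LEFTY2 had 388, 410 and 368 counts in WT and 196, 198 and 201 in S6K1-/- hESCs, and CER1 had 69, 49 and 57 against 9, 10 and 15. LEFTY2 fell by 0.91 (SE 0.0758, edgeR adjusted p = 7.42e-07) and CER1 by 2.29 (SE 0.250, edgeR adjusted p = 1.31e-05) on the log2 scale. INHBA, with 21, 17 and 28 counts against 4, 4 and 6, had an edgeR adjusted p of 9.56e-04. It did not pass with the size factors of DESeq2 (0.00102), with its Wald test (0.0026) or with the replicate block (0.00114), nor in 5 of the 6 fits on fewer libraries (edgeR adjusted p up to 0.00827). INHBA entered the test through WT alone, with 3 WT and 0 S6K1-/- libraries at the filter's minimum, and CER1 with 3 and 1. GDF3 did not pass in 4 of the 6 fits on fewer libraries (edgeR adjusted p up to 0.00343). NODAL itself had 1814, 1943 and 1619 counts in WT and 1893, 1924 and 1928 in S6K1-/- hESCs, with a log2 fold change of 0.16 (SE 0.0527, edgeR adjusted p = 0.0596). The co-receptor TDGF1 had a log2 fold change of -0.15 (SE 0.0439, edgeR adjusted p = 0.0308). SMAD3 and the receptor ACVR1B had log2 fold changes of 0.20 (SE 0.0409, edgeR adjusted p = 0.00322) and 0.19 (SE 0.0491, edgeR adjusted p = 0.0163), which did not pass 0.001. FOXH1, the partner of SMAD2 and SMAD3, had overlapping groups and a log2 fold change of -0.04 (SE 0.0502, edgeR adjusted p = 0.631). LEFTY1, whose product acts like that of LEFTY2, also had overlapping groups, at 0.02 (SE 0.0592, edgeR adjusted p = 0.870).
Of 16 genes of the WNT, BMP and FGF inputs, such as WNT3, BMP4, FGF8 and LEF1, 13 were tested and none passed 0.001 in edgeR's quasi-likelihood test or in DESeq2's Wald test. None of the 13 had an adjusted p under 0.05 either, and 3 were higher and none lower at an unadjusted p under 0.05. WNT3 entered the test through S6K1-/- alone, with 0 WT and 3 S6K1-/- libraries at the filter's minimum, and LEF1 with 3 and 2. Of 15 further genes of streak and mesoderm, 5 were tested and none passed in either test, with 2 higher and none lower at an unadjusted p under 0.05 in edgeR. MSGN1, HAND1, EVX1 and FOXF1, which mark mesoderm, were at 0 in every library.
Of 11 genes of primitive endoderm, 10 were tested, 2 were lower and none was higher, with a median of 0.04. The lower genes were APOE (log2 fold change -0.36, SE 0.0461, edgeR adjusted p = 6.69e-05) and SPARC (-0.25, SE 0.0422, adjusted p = 9.31e-04), an apolipoprotein and a matrix protein that many cell types make. SPARC did not pass when any 1 library was left out (edgeR adjusted p from 0.00124 to 0.0105). SOX7, a defining factor of that lineage, had from 5 to 15 counts in a library and overlapping groups.

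**Figure D4:**
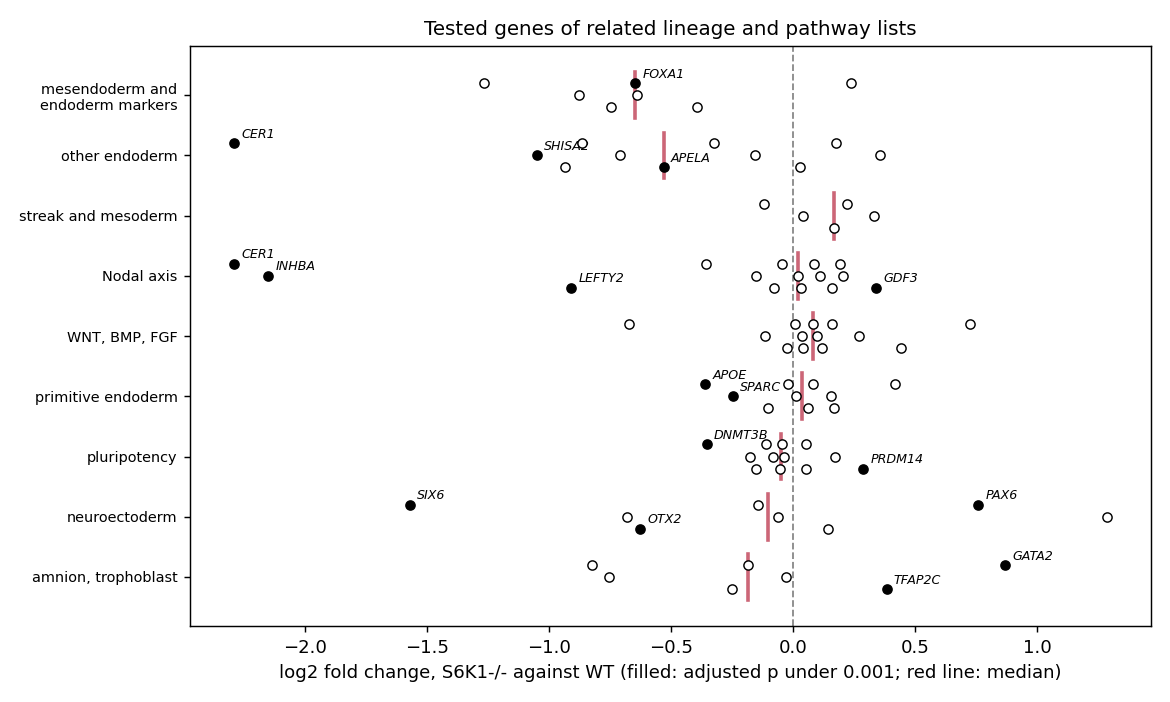
Log2 fold change, S6K1-/- against WT (x axis), of the tested genes of each list (rows), with filled points for an adjusted p under 0.001 and a red line at the median of the list. The medians of the tested markers and of the tested other endoderm genes lie at -0.65 and -0.53, and those of the other lists drawn between -0.18 and 0.17, while the family relatives, CXCR4 partners and neighbouring RNAs are not drawn. EOMES and CXCR4 among the markers, and CER1 and AFP among the other endoderm genes, reached the filter's minimum in fewer S6K1-/- than WT libraries. These medians therefore describe the genes tested and not the lists.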

How the data were processed

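Whole-number counts per gene symbol were deposited by the authors without normalization. Per their methods and processing notes, reads of TruSeq Stranded mRNA libraries were trimmed with Trim Galore 0.6.5, aligned to GRCh38 with Bowtie2 2.4.5, which does not align across splice junctions, and counted with featureCounts. The annotation release is not given in the sources used here. A second deposited table holds the authors' own DESeq2 comparison and was not used.

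Genes were kept with filterByExpr (minimum count 10), which left 19521 of 61155. Libraries were scaled by TMM, and S6K1-/- was compared with WT in edgeR 4.0.16 (R 4.3.3) with the quasi-likelihood test, genotype as the only factor and Benjamini-Hochberg adjustment over all genes tested. The threshold was the study's adjusted p under 0.001. Standard errors came from the log2 fold change and the F statistic. Levels per kilobase used the union of GENCODE 44 exons. The steps were tested on simulated data. Depth ranged from 21896698 to 24473013 counts, and intervals and floors from counts cover counting error only. Replicates differed by more than counting noise (chi-square per degree of freedom 2.22 to 4.45).

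The genes and lists were chosen with earlier results of these data known. All 10 markers, RPS6KB1, some genes of the pluripotency, Nodal and family lists, and list genes past the threshold were to be named. Other genes were named after their values were seen, or, for TTC6 and LINC00261, for their position. Each library was left out in turn. The fit was also repeated with the replicate number as a block, with all genes kept or only those with at least 10 counts throughout, with size factors or the Wald test of DESeq2 1.42.0, and with an adjusted p under 0.05.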

Additional observations from a re-analysis of the deposited data

How the results depend on the processing

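Every marker tested kept the sign of its log2 fold change in each alternative in which it was fitted, and CXCR4 and EOMES could not be fitted with at least 10 counts required in every library. Of the markers, 1 was lower and none higher at an adjusted p under 0.001. The number of lower markers was 2 with DESeq2's Wald test, 3 without the filter on low counts, 3 at an adjusted p under 0.05, and from 0 to 2 with a library left out, and 1 was higher at 0.05. FOXA2 was past the threshold with DESeq2's Wald test (log2 fold change -0.87) and without the filter (-0.88), and CXCR4 only without the filter (-1.26). With each library left out, FOXA1 was between -0.70 and -0.60 and FOXA2 between -0.99 and -0.67. Leaving out 1 library moved all genes from 278 higher and 496 lower to between 175 and 235 higher and between 313 and 445 lower. Of 19521 genes they were 339 and 505 with DESeq2's Wald test, and 1067 and 1622 at 0.05 in edgeR. Without the filter they were 591 and 982 of 37733 genes.
With the replicate number as a block, FOXA1 was at -0.65, FOXA2 at -0.87, and all genes at 241 higher and 423 lower. The block changed no call on the 10 markers at 0.001, while MIXL1 went from an adjusted p of 0.0449 to 0.0551 in edgeR. Same-numbered libraries correlated in their deviations by 0.02, 0.00 and 0.03 over all genes tested, and differently numbered ones by -0.05 to 0.03. No pairing by number was seen, but a culture or batch effect shared by a few genes would barely show here and was not tested.
At an adjusted p under 0.05, the Nodal list held 3 higher and 4 lower genes, the streak list 1 higher, the other endoderm list 1 higher and 4 lower, the pluripotency list 2 higher and 3 lower, the neuroectoderm list 2 higher (one of them SOX1, which entered the test through S6K1-/- alone) and 3 lower, the amnion list 2 higher and 1 lower, and the CXCR4 partner and neighbouring RNA lists 1 lower each. The Nodal list held 3 lower genes, 2 with DESeq2's size factors, with its Wald test, with the block and in 5 of the 6 fits on fewer libraries, and 1 with at least 10 counts in every library. Without the filter the streak list held 1 higher gene. The amnion list held 1 lower gene with DESeq2's Wald test, without the filter and with the block, and the primitive endoderm list 1 with DESeq2's size factors. With a library left out, the Nodal, pluripotency and neuroectoderm lists held 0 to 1 higher genes, the amnion list 0 to 1 lower and the primitive endoderm list 1 lower. POU5F1 lay between -0.11 and 0.01 with a library left out and changed sign without S6K1-/- replicates 1 (0.0055) and 2 (5.69e-04), far from any threshold. Markers under about 30 counts in a library had wide intervals, and how far depth limits their calls was not tested.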

Other observations

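Markers of other lineages were read in the same libraries. At an adjusted p under 0.001, 1.42% of all genes tested were higher and 2.54% lower, and 14.5% were lower at an unadjusted p under 0.05 in edgeR. Of 11 neuroectoderm genes, 8 were tested, 1 was higher and 2 were lower at an adjusted p under 0.001, with a median log2 fold change of -0.10. SOX1 entered the test through S6K1-/- alone, with 0 WT and 3 S6K1-/- libraries at the filter's minimum, so counts and median describe the 8 genes tested. PAX6, a factor of neuroectoderm and eye, had 99, 108 and 115 counts in WT and 161, 181 and 181 in S6K1-/- hESCs and rose by 0.76 on the log2 scale (SE 0.113, edgeR adjusted p = 2.69e-04), but it did not pass without WT replicate 1 or S6K1-/- replicates 2 or 3 (edgeR adjusted p up to 0.00228). The lower genes were SIX6 and OTX2. SIX6, an eye field factor, had 374, 452 and 419 counts in WT and 139, 130 and 133 in S6K1-/- hESCs and fell by 1.57 (SE 0.0927, edgeR adjusted p = 1.41e-08). OTX2, a factor of anterior neuroectoderm that hESCs also express, had 423, 475 and 439 counts in WT and 289, 258 and 283 in S6K1-/- hESCs and fell by 0.63 (SE 0.0795, edgeR adjusted p = 6.02e-05). Both passed in every alternative fitted.

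Of 13 amnion and trophoblast genes, 7 were tested, GATA2 and TFAP2C were higher and none was lower at an adjusted p under 0.001 in edgeR (1 with the Wald test of DESeq2, and 2 at an unadjusted p under 0.05 in edgeR), with a median of -0.18 and 5 of the 7 estimates below 0. KRT7, a keratin of simple epithelia, had a log2 fold change of -0.82 and just missed the threshold in edgeR (adjusted p = 0.00103). TFAP2C, which undifferentiated hESCs also express, had 949, 1048 and 992 counts in WT and 1280, 1278 and 1183 in S6K1-/- hESCs. HAND1 was at 0 in every library, and CGA and ISL1 had at most 3 counts. Of 12 pluripotency genes, DNMT3B was lower (log2 fold change -0.35, SE 0.0438, edgeR adjusted p = 4.88e-05) and PRDM14 higher (0.29, SE 0.0444, edgeR adjusted p = 3.62e-04), although PRDM14 did not pass in 4 of the 6 fits on fewer libraries (edgeR adjusted p up to 0.0039).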
